A study of Mus musculus with 6 samples.

Results

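Hepatoblasts, the progenitors of hepatocytes and bile duct cells, fill the liver of the mid-gestation mouse embryo and secrete many proteins of the fetal plasma. The 29 genes described here encode such plasma proteins, hepatoblast transcription factors and the keratins of simple epithelia. They were chosen by name, and all 29 were found among the 23420 genes of the deposited table. The RNA came from sorted endothelial cells. The counts show how much transcript of these genes each library held, and not which cells made it.

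The embryos, at embryonic day 12.5, had the strain label Csf1r-iCre;RosatdTomato. Csf1r-iCre places Cre recombinase under the promoter of Csf1r, the gene of a macrophage growth factor receptor, and the Rosa reporter makes the red protein tdTomato once Cre has acted. Both groups share these alleles, the whole embryo as tissue and a sort for PECAM1+ CD45- CD11b- KIT- cells. They differ in the reporter, with 3 tdTom+ and 3 tdTom- libraries. The reporter records Cre activity in a cell or its ancestors, and the labels give neither sex nor an embryo for a library.

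Library totals lay between 8919887 and 11767956 counts. The sum of 12 core endothelial genes was even across libraries, at 8316 to 8896 CPM (counts scaled to a common library size). Of the 12, 0 passed the test between fractions, and 1.58% of all tested genes did. Some single genes did not overlap between fractions, as for 17.2% of all tested genes. Pecam1 was at 768 to 881 CPM in tdTom+ and 889 to 959 in tdTom-, and Cdh5 at 536 to 567 and 435 to 534. Of the genes named by the sort gates, Pecam1 had 8224 to 10514 counts, Ptprc (CD45) at most 22 and Itgam (CD11b) at most 12, while Kit was present at 890 to 1435. Csf1r had 65, 57 and 81 counts in tdTom+ and 41, 52 and 39 in tdTom-, and did not pass (edgeR adjusted p = 0.719). Xist, transcribed from the inactive X chromosome, reached 1224 counts in tdTom+ replicate 3 and 571 in tdTom- replicate 3 but no more than 8 in any other library, so number 3 differed in sex.

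As liver cells mature, albumin replaces its fetal relative alpha-fetoprotein as the main carrier protein of plasma. Transthyretin and retinol-binding protein carry thyroid hormone and vitamin A, transferrin carries iron, and apolipoproteins carry lipids. In liver such genes are driven by HNF1, HNF4A, FOXA and C/EBP transcription factors. Several are also transcribed elsewhere: Apoe in macrophages and other cells, Trf, Rbp4 and Vtn in several tissues, Ttr in choroid plexus, Krt8 and Krt18 in simple epithelia, and many in the visceral endoderm of the yolk sac.

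Promoter sequences are shown because the members share letters that the choice by name did not use. RefSeq promoter windows (GRCm38.p6, the assembly also called mm10) were found for 26 of the 29 genes, in 33 windows, and not for Trf, Ttr and Apoc1. Each line gives the 150 bases before the start, 5′ to 3′ on the strand of the gene. Capitals mark GTTAAT, a half-site of HNF1, or TGTTTNC, a core of FOXA sites, on either strand. Alb, Afp, Apoa1, Fgb and Serpina1b are examples of genes mainly of liver, and Krt8 and Apoe (the outermost of its 3 starts) of genes that other cells also make. They do not represent all members of either kind.
Alb (chr5:90460720-90460869, plus strand): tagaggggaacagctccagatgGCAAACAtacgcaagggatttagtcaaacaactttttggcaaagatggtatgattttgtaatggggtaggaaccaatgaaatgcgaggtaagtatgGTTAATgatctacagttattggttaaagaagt
Afp (chr5:90490564-90490713, plus strand): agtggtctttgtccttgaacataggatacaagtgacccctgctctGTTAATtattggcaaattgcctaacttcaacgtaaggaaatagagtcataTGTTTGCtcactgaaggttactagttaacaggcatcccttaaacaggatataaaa
Apoa1 (chr9:46228480-46228629, plus strand): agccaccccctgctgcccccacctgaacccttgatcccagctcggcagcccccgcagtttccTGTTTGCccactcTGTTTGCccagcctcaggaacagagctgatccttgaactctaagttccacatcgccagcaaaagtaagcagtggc
Fgb (chr3:83049864-83050013, minus strand): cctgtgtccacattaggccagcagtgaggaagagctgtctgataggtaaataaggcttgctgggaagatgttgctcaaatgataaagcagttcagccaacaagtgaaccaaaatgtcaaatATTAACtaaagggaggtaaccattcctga
Serpina1b (chr12:103738190-103738339, minus strand): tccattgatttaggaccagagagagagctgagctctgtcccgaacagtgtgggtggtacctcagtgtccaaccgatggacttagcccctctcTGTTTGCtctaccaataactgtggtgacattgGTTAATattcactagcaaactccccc
Krt8 (chr15:102004343-102004492, minus strand): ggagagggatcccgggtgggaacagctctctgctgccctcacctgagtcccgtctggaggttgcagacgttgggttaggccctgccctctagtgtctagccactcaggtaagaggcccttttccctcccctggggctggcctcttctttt
Apoe (chr7:19699189-19699338, minus strand): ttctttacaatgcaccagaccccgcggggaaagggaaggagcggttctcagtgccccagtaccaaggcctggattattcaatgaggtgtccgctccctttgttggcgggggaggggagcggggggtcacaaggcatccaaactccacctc

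In the 250 bases before the start, on either strand, GTTAAT was found in 11 of the 33 member windows (33.3%) and in 6.43% of all 32851 windows of that length. TGTTTNC was found in 18 member windows (54.5%) and in 17.8% of all windows, and the C/EBP letters TTGCNNAA in 11 member windows (33.3%) and in 9.56% of all windows. Matches of different motifs among these 3 shared bases in 1 cases in the member windows. GTTAAT began 32 bases before the start in Alb, 29 in Fgb, 26 in Serpina1b and 105 in Afp. The printed Krt8 and Apoe stretches held no capitals, while another start of Apoe had GTTAAT 172 bases before it. Of other members that many cells make, Vtn had GTTAAT and Rbp4 and Krt18 had TGTTTNC in the 250 bases. Serpinc1, Itih2, Fgg and Foxa3, kept as genes mainly of liver, had neither. These 3 forms and the printed promoters were chosen after the matches of 9 forms had been seen, and TGTTTNC, which takes any base at N, was formed after those of TGTTTAC (12.1% of member and 3.17% of all windows) and TGTTTGC (27.3% and 4.30%). Of the others, the full HNF1 consensus and the HNF4 form CAAAGTCCA were in 0 member windows, a shortened HNF1 consensus was in Afp alone, the HNF4 letters CAAAGT were in 24.2% against 12.6% of all windows, and TATAAA in 27.3% against 12.4%. A match is a description of letters and not a binding site.

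**Figure D1:**
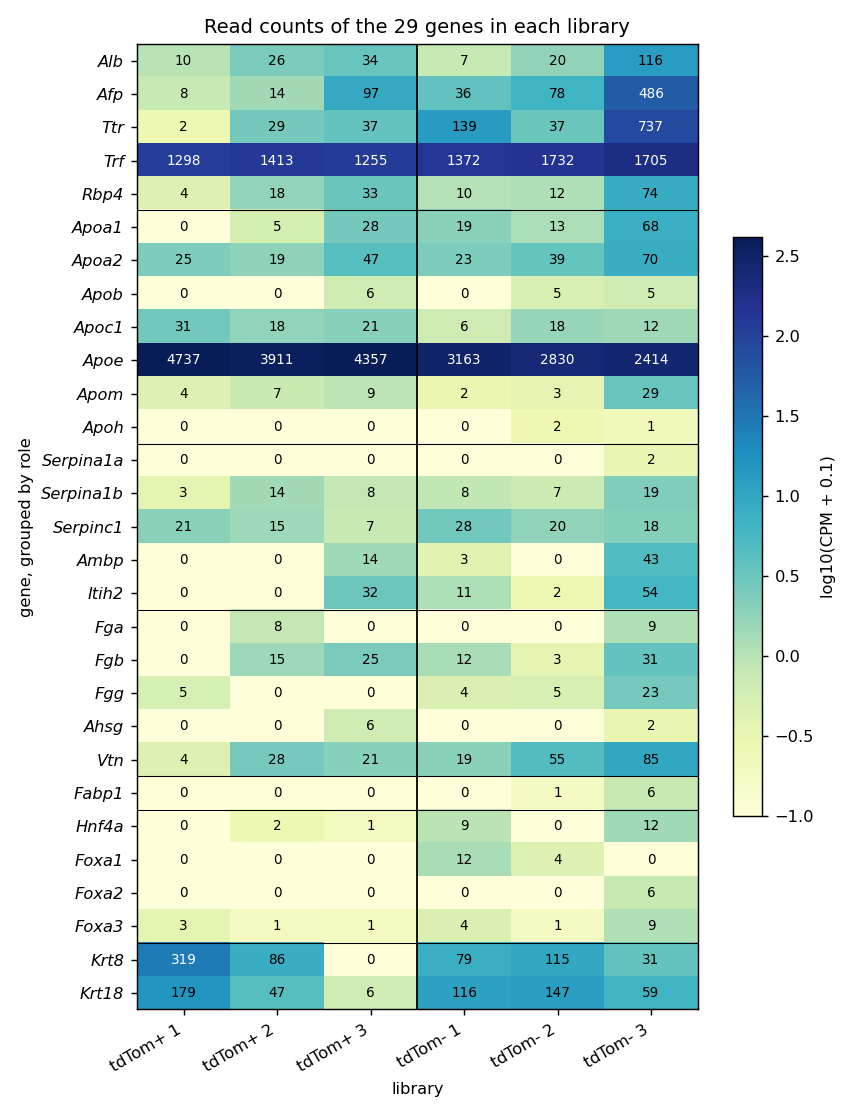
Read counts of the 29 genes (vertical axis, grouped by role) in the 6 libraries (horizontal axis), with colour for log10(CPM + 0.1) and the raw count in each cell. Apoe and Trf stand at over 1000 counts in every library, and most other plasma protein genes reach their highest count in tdTom- replicate 3.

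Levels differed widely among the members. Apoe had 2414 to 4737 counts and Trf 1255 to 1732, and no other member passed 737 in any library. Per kilobase of exon, the mean level of Apoe was 184 ± 14.5 CPM in tdTom+ and 127 ± 15.7 in tdTom- (SD, n = 3). On the same scale Afp was at 1.09 ± 1.39 and 6.37 ± 8.46, and Alb at 0.915 ± 0.498 and 2.18 ± 2.91. For Afp, the SD in each group was larger than the mean. After a filter on low counts 15 of the 29 genes were tested and 14 were not. Setting aside Apoe, Trf, Rbp4, Krt8, Krt18 and Vtn, which many other cells make, left 23 genes, called the 23-gene set below, of which 9 were tested. The set still holds Ttr and other genes that choroid plexus or yolk sac can make.

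The 23-gene set was concentrated in 1 library. Its summed counts were 112, 173 and 373 in tdTom+ replicates 1 to 3, and 323, 258 and 1758 in tdTom-. In CPM the sums were 9.81, 15.8 and 34.8 for tdTom+ against 31.3, 21.8 and 196.5 for tdTom-. Replicate 3 was highest in each fraction, and tdTom- replicate 3 was far above every other library. The means of 20.2 ± 13.1 and 83.2 ± 98.2 CPM (SD, n = 3) differed by less than the SD of tdTom-, and the groups overlapped. The log2 ratio of the means, tdTom+ over tdTom-, was -2.05 with all libraries, -0.40 without tdTom- replicate 3, -1.05 without both libraries numbered 3 and -1.48 with all libraries but without Ttr. In bulk RNA, fewer cells of a type and less RNA per cell cannot be told apart.

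**Figure D2:**
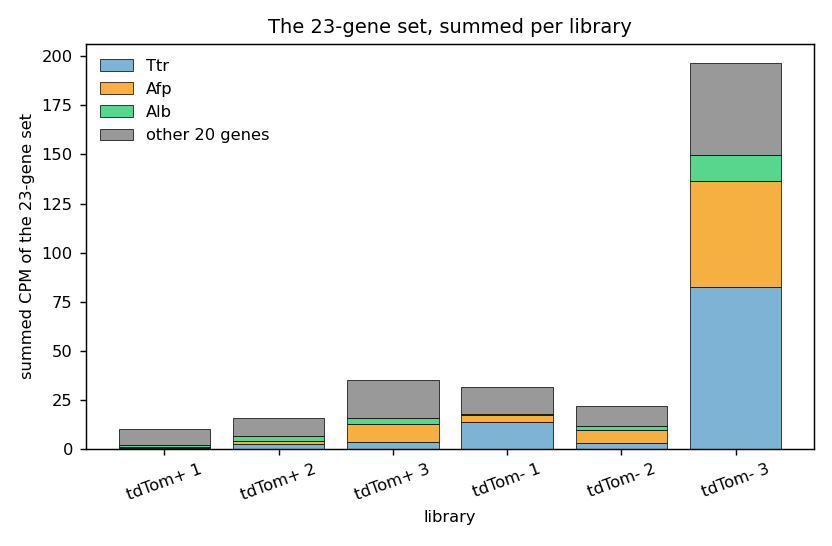
Summed CPM of the 23-gene set in each library (vertical axis from 0, 1 bar per library), divided into Ttr, Afp, Alb and the other 20 genes. The bar of tdTom- replicate 3 reaches 196.5 CPM and the other 5 bars lie between 9.81 and 34.8 CPM.

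Many genes shared the height of tdTom- replicate 3. Of the 23 genes, 17 (73.9%) had their highest CPM there, as had 15.3% of all tested genes and 17.2% of the 7428 genes with 6 to 1000 counts in all. Without Alb, Afp and Ttr the sum in that library was 46.8 CPM, and 8.06 to 19.1 CPM elsewhere. It held at least 1 count of 22 of the 23 genes, while tdTom+ replicates 1 to 3 held 10, 13 and 16 and tdTom- replicates 1 and 2 held 16 and 17. A gene without a count may still be present at up to 0.254 to 0.335 CPM, the worth of 3 counts in these libraries. The tally by highest library was made after the values were seen.

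Markers of other cell types had other orders of libraries. Sinusoidal endothelium, the vessel type that runs between hepatoblasts, was represented by 16 genes. They summed to 2750 to 3160 CPM in tdTom+ and 1157 to 1303 in tdTom-. Of the 15 tested, 12 were called higher in tdTom+ and 0 lower, against 0.769% and 0.814% of all tested genes. The lists were chosen with earlier results of these data known, so this count is no independent finding. The smallest p-values were those of Lyve1, a hyaluronan receptor gene, and Oit3, with log2 ratios of 1.64 and 1.77 (edgeR adjusted p = 2.66e-05 and 7.88e-05). The 12 mesenchyme genes ran from 180 to 716 CPM in tdTom+ and from 525 to 1257 in tdTom-, highest in tdTom- replicate 1, with 0 of 12 called. All 12 had a log2 ratio below 0, with a median of -1.04. Erythroid genes ran from 317 to 427 and from 192 to 345 CPM, lowest in tdTom- replicate 3, with 1 of 9 tested called higher in tdTom+. Neural genes lay between 429 and 461 CPM in all libraries, with 1 of 10 tested called higher in tdTom+. The part of these cell types in the sums of the 23-gene set was not tested.

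**Figure D3:**
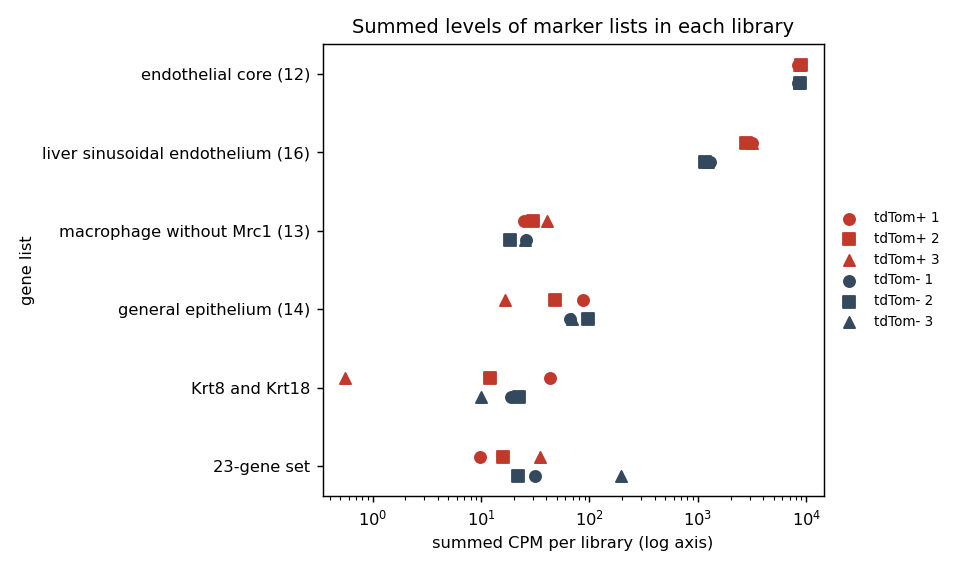
Summed CPM per library (horizontal log axis) for 6 gene lists (vertical axis, number of genes in brackets), tdTom+ in red and tdTom- in dark blue, with a marker shape for each replicate number. The sinusoidal sums of the fractions are apart, and tdTom- replicate 3 is apart for the 23-gene set.

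Among the members, Apoe alone passed the test. Over all 13142 tested genes, 0.769% were called higher and 0.814% lower in tdTom+ (edgeR, adjusted p under 0.05), 1.58% in all, and of the 15 tested members 1 was higher and 0 lower. DESeq2 also gave 1 and 0. An unadjusted p under 0.05 was reached by Apoe and Trf, 2 of the 15 members, and by 10.7% of all genes. The log2 ratio was below 0 for 12 of the 15 and for 50% of all genes, with medians of -0.72 and -0.00026. The members' median was -0.00072 without tdTom- replicate 3, and the filter that chose the tested members used the counts of that library too.

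**Figure D4:**
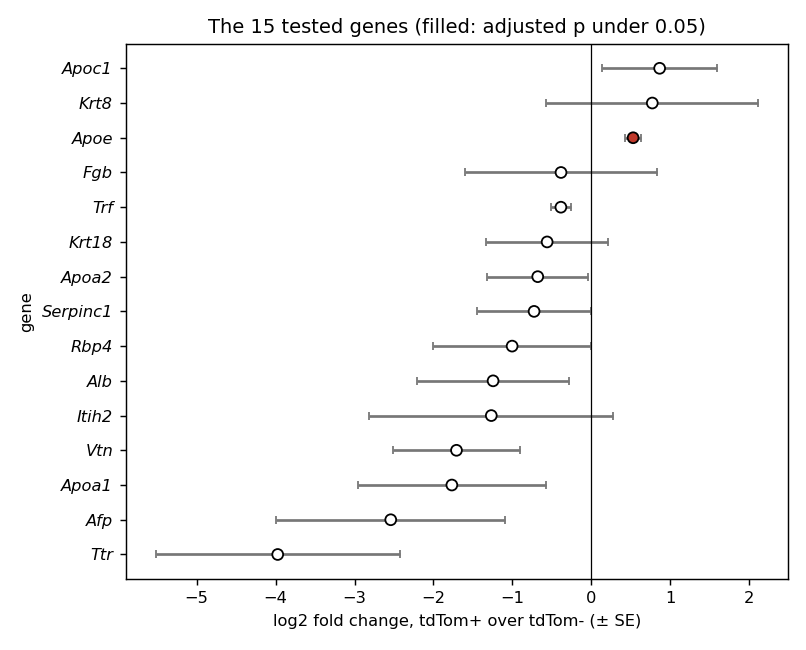
Log2 ratio of tdTom+ over tdTom- (horizontal axis) of the 15 tested members, with its SE as a bar, and a filled point where the edgeR adjusted p was under 0.05. Apoe, at 0.53, is the single filled point, and Ttr and Afp lie farthest to the left with SEs of 1.55 and 1.45.

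Among the carrier proteins, alpha-fetoprotein was far higher in replicate 3 of both fractions than in the other libraries of the same fraction. Afp (chromosome 5, 90490737 to 90508907, plus strand) was counted 8, 14 and 97 times in tdTom+ replicates 1 to 3 and 36, 78 and 486 times in tdTom-. The corresponding levels were 0.701, 1.28 and 9.06 CPM against 3.49, 6.59 and 54.3 CPM. tdTom+ replicate 3 stood above tdTom- replicates 1 and 2, so the groups overlapped, and the log2 ratio, -2.54 ± 1.45 (SE), was not significant by edgeR (adjusted p = 0.655). Without tdTom- replicate 3 it was -0.46 ± 0.99. Between libraries of the same number, tdTom- exceeded tdTom+ 4.98, 5.15 and 5.999 times, although no label ties a number to 1 embryo. A fit with the number as a block, given with the limits, called 2.24% of all genes and 1 further member, Afp.

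Albumin did not keep to those proportions. Alb, 14.1 kb from Afp (chromosome 5, 90460897 to 90476602, plus strand), was counted 10, 26 and 34 times in tdTom+ and 7, 20 and 116 times in tdTom-. Between same-numbered libraries, tdTom- was at 0.774, 0.711 and 4.08 times tdTom+, so only number 3 had the direction of Afp. The log2 ratio was -1.24 ± 0.96 (edgeR adjusted p = 0.740). Of the joint Afp and Alb counts, Afp made up 83.7%, 79.6% and 80.7% in tdTom- replicates 1 to 3, with 95% exact (Clopper-Pearson) intervals of 69.3 to 93.2%, 70.3 to 87.1% and 77.3 to 83.8%. In tdTom+ the shares were 44.4%, 35.0% and 74.0%, with intervals of 21.5 to 69.2%, 20.6 to 51.7% and 65.7 to 81.3%. All tdTom+ shares were thus below all tdTom- shares, though the intervals of replicate 3 overlapped. Shares were computed for 6 gene pairs picked after the counts were seen, and those of Apoa1 with Apoa2 (0 to 37.3% in tdTom+, 25.0 to 49.3% in tdTom-), Apoc1 with Apoe (0.458 to 0.650% and 0.189 to 0.632%) and Ttr with Afp (20 to 67.4% and 32.2 to 79.4%) overlapped between fractions. The intervals cover counting error only, since reads of amplified cDNA are not single molecules.

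Ttr, the transthyretin gene, varied widely between libraries. Its counts were 2, 29 and 37 in tdTom+ against 139, 37 and 737 in tdTom-, or 0.175, 2.65 and 3.45 CPM against 13.5, 3.13 and 82.4. tdTom+ replicate 3 lay above tdTom- replicate 2, and the log2 ratio of -3.97 ± 1.55 did not pass (edgeR adjusted p = 0.468). Ttr made up 95.2% of the joint Ttr and Alb counts in tdTom- replicate 1 (interval 90.4 to 98.1%), 64.9% in replicate 2 (51.1 to 77.1%) and 86.4% in replicate 3 (83.9 to 88.6%). In tdTom+ the shares were 16.7% (2.09 to 48.4%), 52.7% (38.8 to 66.3%) and 52.1% (39.9 to 64.1%). All were lower, though the intervals of tdTom+ replicates 2 and 3 overlapped that of tdTom- replicate 2. Choroid plexus epithelium also makes Ttr, and its 10 marker genes summed to 167 to 202 CPM in tdTom+ and 134 to 176 in tdTom-, mainly from Aqp1 and Enpp2, with 0 of 4 tested called. Kl had 0 counts throughout, Folr1 had 1, 0 and 0 against 5, 9 and 17, and Clic6 had 16, 0 and 0 against 21, 19 and 37. Slc4a5 had 4, 0 and 0 against 0, 8 and 25, and Kcne2 had 0, 13 and 1 against 0, 0 and 18. In CPM, Enpp2 was at 38.4, 58.9 and 69.6 against 56.0, 63.7 and 74.6. Folr1, Clic6, Slc4a5, Kcne2 and Enpp2 were highest in tdTom- replicate 3, and Aqp1, Prlr, Sostdc1 and Otx2 were not. Sostdc1 had 11, 11 and 0 against 36, 26 and 2, and Otx2 had 5, 16 and 0 against 5, 13 and 6. The part of choroid plexus in the Ttr counts was not tested.

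Rbp4, the gene of the plasma retinol carrier, had its highest count in replicate 3 of each fraction, with 4, 18 and 33 in tdTom+ and 10, 12 and 74 in tdTom- (log2 ratio -1.002 ± 0.997, edgeR adjusted p = 0.813). Trf (chromosome 9, 103204001 to 103230444, minus strand) was far more abundant and steadier, at 114, 129 and 117 CPM in tdTom+ and 133, 146 and 191 CPM in tdTom-. Every tdTom- library lay above every tdTom+ library, as for 9.35% of all genes, and Trf was the single tested member of that kind. The log2 ratio of -0.38 ± 0.13 did not pass (edgeR adjusted p = 0.262). Trf exons share 2108 bases with Gm20425 on the same strand, so reads there may be assigned to either gene or dropped.

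**Figure D5:**
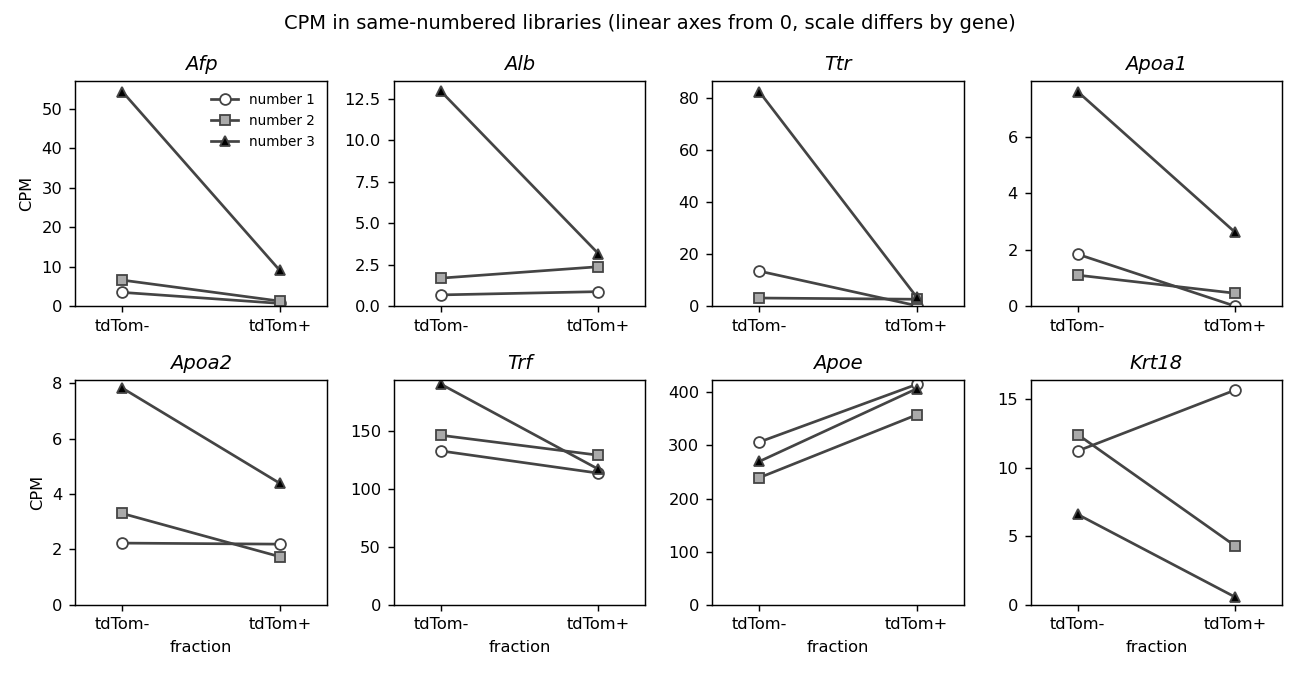
CPM of 8 members (vertical axes from 0, scaled per gene) in tdTom- and tdTom+ libraries, with lines joining libraries of the same number. All 3 lines descend to tdTom+ for Afp and Trf and ascend for Apoe, while Alb descends only for number 3.

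Apolipoprotein E rose in tdTom+ cells. Apoe (chromosome 7, 19696109 to 19699188, minus strand) encodes a lipoprotein ligand of receptors of the low-density lipoprotein receptor family. It stood at 415, 358 and 407 CPM in tdTom+ replicates 1 to 3 and at 306, 239 and 270 CPM in tdTom-. The groups did not overlap, and the means were 393 ± 31.0 and 272 ± 33.6 CPM (SD, n = 3), a fold of 1.45 or 0.53 ± 0.099 on the log2 scale (edgeR adjusted p = 0.0255). In the authors' deposited table its adjusted p is 3.71e-05. Unlike the 23-gene set, Apoe was not highest in tdTom- replicate 3. The call was lost without tdTom+ replicate 1 (edgeR adjusted p = 0.0908), tdTom+ replicate 3 (0.0620), tdTom- replicate 2 (0.0987), tdTom- replicate 3 (0.126) or both libraries numbered 3 (0.229), with log2 ratios of 0.45 to 0.52.

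Macrophages make Apoe too, and their 14 marker genes summed to 88.9 to 151 CPM in tdTom+ and 44.4 to 58.7 in tdTom-. Most of this came from Mrc1, which sinusoidal endothelium shares and which was the only one of 9 tested markers called. Without it the sums were 25.1, 30.2 and 40.8 CPM against 26.0, 18.5 and 25.2, and the groups overlapped. The complement gene C1qb had 104, 91 and 117 counts in tdTom+ and 34, 46 and 56 in tdTom- (log2 ratio 1.08, edgeR adjusted p = 0.267). Its partner C1qa had 16, 10 and 12 against 14, 7 and 14, and C1qc 36, 17 and 22 against 24, 16 and 26. Ptprc had 0, 0 and 4 against 19, 0 and 22, and Itgam 0, 4 and 6 against 12, 0 and 5. Their part in the Apoe difference was not tested.

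Apoc1, a small apolipoprotein gene 3.45 kb from Apoe, was likewise higher in each tdTom+ library, at 2.72, 1.65 and 1.96 CPM against 0.581, 1.52 and 1.34. It rested on 6 to 31 counts a library, and its log2 ratio of 0.87 ± 0.73 did not pass (edgeR adjusted p = 0.765). Apoe and Apoc1 were the 2 tested members with separate groups on the higher side, where 7.88% of all genes had them.

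Apoa1 and Apoa2, which encode the main proteins of high-density lipoprotein, were highest in replicate 3 of each fraction. Apoa1 counts were 0, 5 and 28 in tdTom+ and 19, 13 and 68 in tdTom- (log2 ratio -1.766 ± 1.196, edgeR adjusted p = 0.689). Those of Apoa2 were 25, 19 and 47 and 23, 39 and 70 (-0.68 ± 0.64, edgeR adjusted p = 0.797). Both genes overlapped between groups. Apom, whose product carries sphingosine 1-phosphate, had 29 counts in tdTom- replicate 3 and 2 to 9 elsewhere. Apob, the scaffold of very-low-density lipoprotein, had at most 6 counts and Apoh, beta-2-glycoprotein, at most 2, and these last 3 genes were too low to test.

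The protease inhibitors were split. Itih2 and Ambp, which encode chains of the inter-alpha-trypsin inhibitor complex, had most of their counts in the libraries numbered 3. Itih2 was counted 0, 0 and 32 times in tdTom+ and 11, 2 and 54 times in tdTom- (log2 ratio -1.27 ± 1.55, edgeR adjusted p = 0.866), and Ambp 0, 0 and 14 against 3, 0 and 43 times. Serpinc1, the antithrombin gene, was lowest in tdTom+ replicate 3, with 21, 15 and 7 counts against 28, 20 and 18 in tdTom- (log2 ratio -0.72 ± 0.72, edgeR adjusted p = 0.813). Its exons overlap those of Zbtb37 on the other strand by 2942 bases, and the kit does not mark strand. The alpha-1-antitrypsin gene Serpina1b had 3, 14 and 8 counts against 8, 7 and 19, and Serpina1a had 2 counts, both in tdTom- replicate 3. Near-identical copies Serpina1c, Serpina1d and Serpina1e had 4, 20 and 39 counts over all libraries, so the value of any 1 copy is uncertain.

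The fibrinogen chains, encoded side by side on chromosome 3, did not share their libraries. Fgb had 0, 15 and 25 counts in tdTom+ and 12, 3 and 31 in tdTom- (log2 ratio -0.38 ± 1.22, edgeR adjusted p = 0.956). Fga had 8 counts in tdTom+ replicate 2 and 9 in tdTom- replicate 3 and no others, while Fgg had 5, 0 and 0 against 4, 5 and 23. tdTom- replicate 3 was the only library with counts of all 3 chains. Ahsg, the fetuin-A gene, had 6 counts in tdTom+ replicate 3 and 2 in tdTom- replicate 3. Vtn, the vitronectin gene, had 4, 28 and 21 counts against 19, 55 and 85 (log2 ratio -1.71 ± 0.80, edgeR adjusted p = 0.494), with overlapping groups.

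Hepatic transcription factors were at the edge of detection, and none was tested. Hnf4a, a nuclear receptor gene central to hepatocyte identity, had 0, 2 and 1 counts in tdTom+ and 9, 0 and 12 in tdTom-, and Foxa3 had 3, 1 and 1 against 4, 1 and 9. Foxa1 had 12, 4 and 0 counts in tdTom- and none in tdTom+. Foxa2 had 6 counts in tdTom- replicate 3 alone. Together the 4 genes had 3, 3 and 2 counts in tdTom+ and 25, 5 and 27 in tdTom-, so that tdTom- replicate 1 was close to replicate 3, unlike for Alb and Afp. Fabp1, the liver fatty acid binding protein gene, had 1 count in tdTom- replicate 2, 6 in replicate 3 and none in tdTom+.

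Keratins went the other way across libraries. Krt8 and Krt18, partners in the filaments of hepatocytes and other simple epithelia, had their highest counts in tdTom+ replicate 1, the library with the lowest sum of the 23-gene set. Krt8 counts were 319, 86 and 0 in tdTom+ and 79, 115 and 31 in tdTom- (log2 ratio 0.78 ± 1.34, edgeR adjusted p = 0.914). Those of Krt18 were 179, 47 and 6 and 116, 147 and 59 (-0.56 ± 0.77, edgeR adjusted p = 0.883). Replicate 3 was lowest in each fraction. Krt8 made up 64.1% and 64.7% of the joint counts in tdTom+ replicates 1 and 2 (exact intervals 59.7 to 68.3% and 55.9 to 72.7%), and 40.5%, 43.9% and 34.4% in tdTom- replicates 1 to 3 (33.6 to 47.8%, 37.8 to 50.1% and 24.7 to 45.2%). In tdTom+ replicate 3 it was 0 of 6 counts.

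A general epithelium list of 14 genes was also lowest in tdTom+ replicate 3, at 16.6 CPM, and lay between 48.3 and 96.1 CPM elsewhere, with 0 of 12 tested called. In that library the adhesion genes Epcam and Cdh1 had 0 and 1 counts beside 34 of Alb and 97 of Afp. In tdTom+ replicate 1 they had 70 and 103, beside 10 of Alb and 8 of Afp. The part of epithelium in the keratin counts was not tested.

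The wider set of secreted liver proteins held 49 genes, of which 10 had no count and 20 were tested. None was higher, 1 was lower and 19 did not pass, with a median log2 ratio of -0.18. Serpinf1, an antiangiogenic serpin gene that mesenchyme also expresses, fell in tdTom+, with 338, 447 and 274 counts against 628, 714 and 535 in tdTom- (log2 ratio -0.91, edgeR adjusted p = 0.0302). No gene of this list was called without tdTom+ replicate 1 or 3, or without any 1 of the tdTom- libraries. Serpina6, the corticosteroid carrier gene, was highest in tdTom- replicate 3, with 6, 0 and 0 counts in tdTom+ and 11, 18 and 82 in tdTom- (log2 ratio -4.36 ± 1.35, edgeR adjusted p = 0.197). Low genes of this list and of the hepatoblast list below were also summed as a set. The 52 of them detected, but with at most 100 counts in any library, summed to 45.4, 48.0 and 44.0 CPM in tdTom+. In tdTom- replicates 1 to 3 their sums were 45.5, 48.1 and 63.0 CPM.

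Of 34 further hepatoblast regulators and enzymes, 7 had no count and 11 were tested, with 0 called by edgeR, 1 by DESeq2 and a median log2 ratio of -0.03. Prox1, a regulator that hepatoblasts share with lymphatic endothelium, had 707, 710 and 697 counts in tdTom+ and 346, 520 and 409 in tdTom- (log2 ratio 0.64, edgeR adjusted p = 0.0653). Dlk1, a surface marker of hepatoblasts also found in mesenchyme, had 490, 248 and 339 against 1814, 554 and 849 (-1.70, edgeR adjusted p = 0.205), and the proteoglycan gene Gpc3 775, 266 and 334 against 1646, 815 and 980 (-1.45, edgeR adjusted p = 0.256). Their groups did not overlap, with tdTom+ lower, as for 9.35% of all tested genes. Both were highest in tdTom- replicate 1, as the mesenchyme genes were. In CPM, Prox1 and Hhex of this list did not overlap in the other direction, with tdTom+ higher, as for 7.88% of all tested genes. Tbx3, a regulator of liver bud growth, had a log2 ratio of -0.77 (edgeR adjusted p = 0.403). Hepatocyte enzyme genes Cps1, Tat, G6pc and Cyp3a11 had 0 counts in every library, while Sult1a1 of the same list had 75 to 154 and Mttp 43 to 99.

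Yolk sac visceral endoderm makes many of the same plasma proteins. Of its 12 markers 5 were tested: Dab2, an endocytic adaptor gene also active in endothelium, was higher in tdTom+ (log2 ratio 0.86, edgeR adjusted p = 0.0138), and the homeobox gene Rhox5 was lower (-2.78, edgeR adjusted p = 0.0072), with 23, 21 and 43 counts against 139, 183 and 231. The genes of its endocytic receptors were scarce, with at most 28 counts of Cubn, 5 of Lrp2 and 2 of their partner Amn. The list summed to 785 to 895 CPM in tdTom+ and 625 to 686 in tdTom-, mostly from Dab2, Sox17 and Tfpi, which endothelium expresses. Its part in the members' counts was not tested.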

How the data were processed

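RNA of sorted cells was amplified with the SMART-seq V4 kit and made into libraries with Nextera XT, per the labels' protocols. The authors deposited raw counts of reads, in whole numbers, with 1 column per library. Tools named in the submitters' processing notes, without role or order, are Trimmomatic (0.36.4), featureCounts (1.4.6), STAR (2.5.2b), Picard (2.7.1.1) and DESeq2, and the build is mm10. The same deposited file gives a log2 ratio and p-value per gene from the authors, as tdTom- over tdTom+, which was reversed in sign here.

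The test was the two-sided quasi-likelihood F-test of edgeR (4.0.16, R 4.3.3) without a block, after filterByExpr (minimum count 10) and TMM, adjusted by Benjamini-Hochberg over the 13142 genes tested, at 0.05. It was tested on simulated data. Log2 ratios are tdTom+ over tdTom-, with SE taken as the absolute ratio over the root of F, and CPM uses TMM-scaled totals. Alternatives were RLE scaling, no filter or a minimum count of 30, DESeq2 (1.42.0), limma-voom (limma 3.58.1), a replicate block and leaving out libraries. A p-value measures the spread between these libraries, which the labels do not tie to single embryos. Libraries of a group differed by a mean chi-square of 7.85 to 19.0 a gene, more than sampling noise, and none was merged.

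Members and lists were chosen with earlier results of these data known. Every member is accounted for, and of each other list up to 4 genes with the smallest p could be named, some of which are not reported here. Other genes were named after their values were seen. Symbols in the lists were respelled to those of the table, where Ahsp and Hbb-bt have no row. Gene positions and exon lengths come from GENCODE M21, and promoters from RefSeq, both on GRCm38. A list of 8 notochord and floor plate genes summed to 7.19 to 17.9 CPM, with 0 of 3 tested called.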

Additional observations from a re-analysis of the deposited data

How the results depend on the processing

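Apoe kept its direction in every alternative, and its call under RLE scaling, both other filters, DESeq2, limma-voom and the block. DESeq2 called 217 genes higher and 267 lower in tdTom+, against 101 and 107 with edgeR, and in all 4 of the other secreted and 1 of the other hepatoblast genes, against 1 and 0. Without a filter these were 2 and 1. Leaving out 1 library at a time gave 37 to 97 genes higher, 25 to 92 lower, 0 to 1 member higher, 0 to 2 secreted and 0 to 1 hepatoblast genes called, and a log2 ratio of the sums of the 23-gene set of -2.70 to -0.40, nearest to 0 without tdTom- replicate 3. Without both libraries numbered 3, an alternative chosen after seeing the data, 27 genes were higher and 16 lower, with 0 members and 0 secreted genes called. The log2 ratio of the sum over all 29 members was 0.05, and it was -0.71 without Apoe and -2.05 without the 6 members that other cells make. The causes of these shifts were not tested, and fits that left out libraries also had fewer samples. A gene with no count in a library may be present there at up to 3 counts.

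The replicate number was not taken as a pairing: no label says that it names an embryo, and across genes the same-numbered libraries, each taken relative to its group mean, had correlations of 0.11, 0.091 and 0.17 for numbers 1, 2 and 3, of which the second misses the limit of 0.1 set for a pairing. Each library correlated best with its own number, the cells of 3 embryos were split into both fractions per the protocol, and Xist was high in both libraries numbered 3. The blocked counts of an earlier account of these data were known when this was decided. With the replicate block, 128 genes were higher and 167 lower (2.24% of those tested, 194 of them also called without it), with 1 member lower, 2 secreted and 3 hepatoblast genes called. The last were Prox1, Dlk1 and Gpc3 (edgeR adjusted p = 0.0463, 0.000865 and 0.000193). The member was Afp (log2 ratio -2.44 ± 0.32, edgeR adjusted p = 0.00204). In blocked fits added after seeing the data, its adjusted p with edgeR was 7.07e-05 without number 1, 0.0119 without number 2 and 0.249 without number 3.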
